A study of Mus musculus with 9 samples.

Results

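The 9 genes described here are the mouse genes S100a8, S100a9, Csf3r, Cxcr2, Cxcl1, Cxcl2, Ly6g, Acod1 and Retnlg, taken by symbol as a set of neutrophil genes and neutrophil-attracting chemokines. All 9 were found among the 32761 genes of the deposited table, and all 9 were among the 15353 genes tested, whose mean over the libraries reached 0.5 FPKM. FPKM is the number of sequenced fragments per kilobase of transcript, scaled to the size of the library. The study treated mice that carried tumours grown in the liver from Hepa1-6-luc cells, a line that descends from a mouse hepatoma, and allocated them to 6 treatment groups. Tumours of 3 groups were taken on day 14 for poly(A) RNA sequencing, 3 per group. The nanocluster group (Co+Len@OVA+anti-PD1) received drug-loaded nanoclusters at 2 mg/mL, the lenvatinib group (Lenvatinib+anti-PD1) received free lenvatinib at the matching concentration, and both drugs went into the tail vein every 3 days. Lenvatinib is a kinase inhibitor of VEGF and FGF receptors. Both groups also received anti-PD1, an antibody against a T cell checkpoint receptor, at 50 µg per injection every 4 days. The third group is labelled Control, and its injections are not described in the labels. The labels spell out no strain, age, sex or genetic alteration and do not say what Co stands for. The 2 treated groups differ in every component of the nanocluster besides lenvatinib, so the parts of the nanocluster cannot be told apart here.

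Neutrophils leave the bone marrow and enter inflamed tissue mainly along gradients of CXC chemokines that carry an ELR motif. In the mouse, Cxcl1 and Cxcl2 are such ligands, made by macrophages, stromal cells, epithelium and tumour cells upon NF-kB signalling, and Cxcr2 is their receptor on neutrophils. Csf3r binds G-CSF, the cytokine that drives neutrophil production. S100a8 and S100a9 pair as calprotectin, the main protein of the neutrophil cytosol, and monocytes make them too. Ly6g is the surface protein by which mouse neutrophils are usually recognised, Retnlg is a resistin-like secreted protein of neutrophils and bone marrow, and Acod1 makes itaconate in activated macrophages and neutrophils. In tumours, neutrophils and related myeloid cells are known both for killing and for suppression of T cells.

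The promoters of the 2 gene pairs that lie side by side in the genome are shown first. Their part in the levels of these genes was not tested. Each line gives the 250 bases before the annotated start, 5′ to 3′ on the gene's strand, from RefSeq on build GRCm38.p6. These are Cxcl1 at chr5:90890995-90891244 and Cxcl2 at chr5:90903649-90903898, both on the plus strand, S100a8 at chr3:90668821-90669070 on the plus strand, and S100a9 at chr3:90695722-90695971 on the minus strand. The build of the deposited table is not given in the sources used here. Capitals mark matches, on either strand, to the motifs searched: GGGANTTTC for NF-kB, TTNNGCAA for C/EBP factors and GAGGAA for PU.1.
Cxcl1: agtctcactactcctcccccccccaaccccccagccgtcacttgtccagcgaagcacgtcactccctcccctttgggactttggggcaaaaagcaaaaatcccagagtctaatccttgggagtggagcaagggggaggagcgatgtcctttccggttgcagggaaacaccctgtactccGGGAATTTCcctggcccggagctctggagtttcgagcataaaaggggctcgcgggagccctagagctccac
Cxcl2: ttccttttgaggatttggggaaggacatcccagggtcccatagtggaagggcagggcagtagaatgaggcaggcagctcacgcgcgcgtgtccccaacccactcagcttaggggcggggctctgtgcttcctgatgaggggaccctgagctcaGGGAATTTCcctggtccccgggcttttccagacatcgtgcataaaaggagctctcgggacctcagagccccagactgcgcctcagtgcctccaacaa
S100a8: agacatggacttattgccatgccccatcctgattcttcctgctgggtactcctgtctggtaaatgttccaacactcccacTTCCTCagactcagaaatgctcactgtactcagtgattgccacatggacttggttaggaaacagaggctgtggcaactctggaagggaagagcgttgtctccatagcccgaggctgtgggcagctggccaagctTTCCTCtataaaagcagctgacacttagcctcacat
S100a9: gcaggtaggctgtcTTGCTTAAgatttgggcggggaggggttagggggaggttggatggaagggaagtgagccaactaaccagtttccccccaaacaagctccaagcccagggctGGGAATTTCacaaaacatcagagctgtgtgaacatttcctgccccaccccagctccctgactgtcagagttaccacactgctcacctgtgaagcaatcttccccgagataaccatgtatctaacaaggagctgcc
The Cxcl1 and Cxcl2 starts lie 12.65 kb apart on chromosome 5. Both promoters hold the same 14-base run GGGAATTTCcctgg, the longest stretch they share in these windows, which contains the NF-kB match and begins 71 bases before the start of Cxcl1 and 97 before that of Cxcl2. The S100a8 and S100a9 starts lie 26.65 kb apart on chromosome 3 on opposite strands. Their promoters share no run longer than 11 bases. The S100a9 promoter holds an NF-kB match 135 bases before the start and a C/EBP match, and that of S100a8 holds 2 PU.1 matches.

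Over windows that run from 250 bases before to 50 after the start, all 9 genes had a promoter in the RefSeq table. An NF-kB match stood in 4 of the 9 (Cxcl1, Cxcl2, S100a9 and Cxcr2), against 1.11% of all 32851 promoters of that length. A C/EBP match stood in 3 of 9 (S100a9, Ly6g and Retnlg), against 10.8%, and a PU.1 match in 6 of 9, against 28.3%. A match is a description of the letters and no evidence that a factor binds there. Ly6g has 2 entries in the table and was counted if either held a match, while the figure shows the first.

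**Figure D1:**
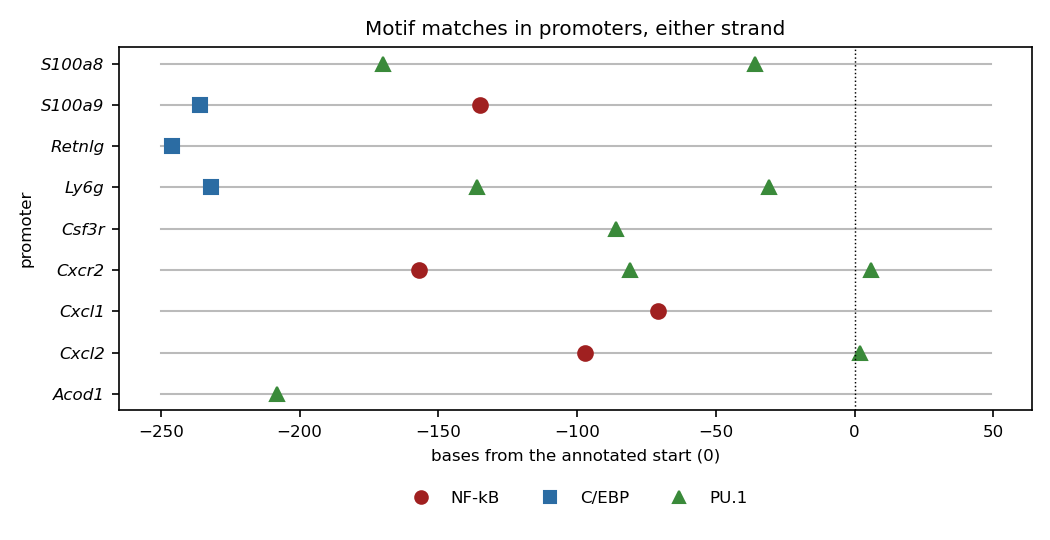
Positions of motif matches in the promoters of the 9 genes, in bases from the annotated start (x axis), with 1 row per gene and 1 symbol per motif. NF-kB matches (circles) appear in the rows of S100a9, Cxcr2, Cxcl1 and Cxcl2 only.

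Some properties of the libraries bear on every result. Summed FPKM lay between 331611 and 372794 per library, and 23575 to 26298 genes were above 0. The deposited values do not give the sequencing depth. In each group, library 3 lay close to a mixture of libraries 1 and 2: where libraries 1 and 2 differed by more than 2-fold, library 3 fell between them for 95.3% of 876 genes in the nanocluster group, 93.8% of 697 in the lenvatinib group and 94.3% of 1630 in Control. The same share for libraries 1 and 2 in place of library 3 lay between 11.6% and 44.4%. Of the 9 genes, 7, 4 and 6 had their middle value in library 3 in these groups. Control replicate 1 held few leukocyte transcripts, with a sum of 53.9 FPKM over Ptprc, Cd53, Coro1a and Laptm5 against 204 and 156 in Control replicates 2 and 3. The labels number the tumours but do not say that they came from separate animals, so the p-values measure the spread between these libraries. With libraries 1 and 2 only, limma called 0 of the 9 genes in each comparison. It called 80, 53 and 369 of all genes for nanocluster against Control, lenvatinib against Control and nanocluster against lenvatinib. At an unadjusted p under 0.05 in limma, 3, 5 and 7 of the 9 passed with libraries 1 and 2 only. The share of all genes at that unadjusted threshold is not given, here or below, so such counts have no background beside them. In that fit, each neutrophil, chemokine and inflammation list described below had at most 1 call in each direction per comparison, and 3 hepatocyte markers fell in nanocluster against lenvatinib tumours. Calls below are from limma on log2(FPKM + 0.5) with all 9 libraries, at a Benjamini-Hochberg adjusted p under 0.05 over all tested genes, and fold changes are on that scale, which understates changes of low genes.

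The set did not move as a block. In the nanocluster tumours against Control, 3 of the 9 genes rose (Csf3r, Cxcl2 and Acod1) and 2 fell (Ly6g and Retnlg), so that 5 of 9 were called, against 33.6% of all tested genes (20.9% rose and 12.7% fell). In the lenvatinib tumours against Control, 5 of 9 fell (S100a8, S100a9, Cxcr2, Ly6g and Retnlg) and 0 rose, against 23.7% of all genes called (9.87% fell and 13.8% rose). At an unadjusted p under 0.05 in limma, 1 (Cxcl1) was higher and 6 were lower there, with no share of all genes at that threshold given. In the nanocluster against the lenvatinib tumours, 7 of 9 rose (all but Cxcl1 and Retnlg) and 0 fell, against 29.4% of all genes called (17.3% rose and 12.0% fell), and 0 was lower at an unadjusted p under 0.05 in limma. The groups did not overlap for 5, 6 and 8 of the 9 genes in these comparisons, against 49.7%, 43.5% and 54.8% of all genes. The median log2 fold change of the 9 was 0.19, -1.05 and 1.37, and that of all tested genes 0.13, 0.05 and 0.07. The 3 comparisons share libraries, so a call in one is not independent of a call in another. Scaling by median of ratios brought the median of all genes for nanocluster against Control from 0.13 to 0.00 and its calls from 3209 higher and 1946 lower to 2052 higher and 2822 lower. Without Control replicate 1, 3 of the 9 rose and 1 fell for nanocluster against Control, 6 fell for lenvatinib against Control, and 8 rose for nanocluster against lenvatinib. That fit also called more of all genes, with 5055 in place of 3636 for lenvatinib against Control and 6610 in place of 4507 for nanocluster against lenvatinib. Counts without that library, here and below, are therefore not comparable with the shares from all 9 libraries.

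**Figure D2:**
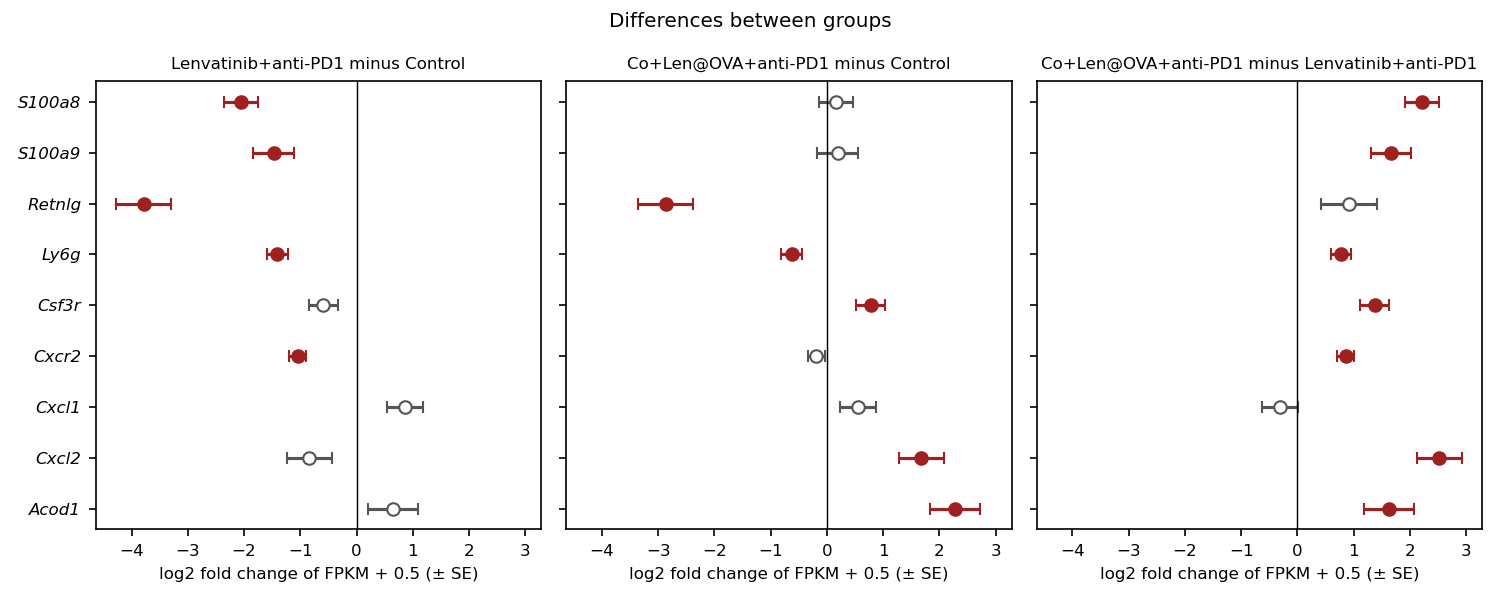
Log2 fold change of FPKM + 0.5 (x axis, with SE) of the 9 genes in the 3 comparisons. Filled red points passed an adjusted p of 0.05, open points did not. S100a8 lies at -2.05 in the lenvatinib tumours against Control and at 0.17 in the nanocluster tumours against Control.

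Of the chemokines, Cxcl2 rose in the nanocluster tumours and Cxcl1 did not pass in any comparison. Cxcl2, which neutrophils and macrophages also make themselves, stood at 6.50, 10.9 and 8.43 FPKM in nanocluster libraries 1, 2 and 3, at 0.470, 1.68 and 1.27 in the lenvatinib libraries, and at 4.03, 1.30 and 2.15 in Control. All 3 nanocluster libraries were above all 6 others, and the lenvatinib and Control libraries overlapped. The means were 8.59 ± 2.18, 1.14 ± 0.616 and 2.49 ± 1.40 FPKM (SD, n = 3 each). Cxcl2 was 3.21-fold higher in nanocluster than in Control tumours (log2 fold change 1.68, SE 0.40, adjusted p = 0.0155) and 5.75-fold higher than in lenvatinib tumours (log2 2.52, SE 0.40, adjusted p = 0.00299). Without nanocluster replicate 3 the first call was lost (adjusted p = 0.0510). The difference between lenvatinib and Control was -0.84 (SE 0.40, adjusted p = 0.163), so the order nanocluster, Control, lenvatinib is resolved only at its top.

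Cxcl1 was low in every group. It stood at 1.53, 3.45 and 3.05 FPKM in the nanocluster libraries, 2.20, 4.70 and 3.37 in the lenvatinib libraries and 1.24, 1.47 and 2.16 in Control. The lenvatinib values all lay above the Control values, by a narrow margin, and the nanocluster values overlapped both. The means were 2.68 ± 1.02, 3.42 ± 1.25 and 1.62 ± 0.480 FPKM (SD, n = 3 each). No neighbours in this order differed past the threshold: the log2 difference was 0.86 (SE 0.32, adjusted p = 0.0873) for lenvatinib against Control, 0.55 (SE 0.32, adjusted p = 0.210) for nanocluster against Control and -0.31 (SE 0.32, adjusted p = 0.483) between the treated groups. Within the lenvatinib group, Cxcl1 and Cxcl2 both ran lowest in replicate 1 and highest in replicate 2. The summed level of 5 skeletal muscle genes (Acta1, Ckm, Myh4, Tnnt3 and Mylpf) followed the same order there, at 24.9, 3621 and 1443 FPKM, and its part in the chemokine values was not tested.

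The balance of the 2 ligands differed between groups. The ratio of Cxcl2 to Cxcl1, both in FPKM, was 4.26, 3.15 and 2.76 in the nanocluster libraries, 0.21, 0.36 and 0.38 in the lenvatinib libraries, and 3.26, 0.88 and 1.00 in Control. All lenvatinib libraries thus held more Cxcl1 than Cxcl2, and all nanocluster libraries more Cxcl2 than Cxcl1. Within the nanocluster group, as in the lenvatinib group, both were lowest in replicate 1 and highest in replicate 2. In Control, replicate 1 was lowest for Cxcl1 and highest for Cxcl2. Over the 9 libraries the log2 levels of Cxcl1 and Cxcl2 had a Pearson r of 0.03. This r is a description over libraries that fall into 3 groups. The genes whose pattern was most like that of Cxcl1 over the 9 libraries were Cyc1 (r = 0.939), Gm8121 (0.936), Pam (0.928) and Sdhc (0.928).

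Most of the remaining CXC ligands of Cxcr2 were higher in the nanocluster tumours. Cxcl3, Cxcl5 and Ppbp, 3 of the 4 tested, rose in nanocluster against Control and in nanocluster against lenvatinib tumours, and 0 of 4 passed for lenvatinib against Control in limma (0 of 4 at an unadjusted p under 0.05). Among all tested genes, 20.9% rose in nanocluster against Control and 17.3% in nanocluster against lenvatinib tumours. Cxcl3 stood at 5.25, 8.97 and 6.95 FPKM in the nanocluster libraries, 3.36, 3.25 and 3.28 in the lenvatinib libraries and 3.31, 2.06 and 2.59 in Control (nanocluster minus Control, log2 1.25, adjusted p = 0.00289). Ppbp, the platelet chemokine, rose by 1.54 against Control (adjusted p = 0.0222) and by 2.20 against lenvatinib (adjusted p = 0.0058). Pf4, a platelet marker, rose beside it by 1.92 and 1.97 on the log2 scale. The fourth ligand, Cxcl15, is known from lung epithelium and was the most abundant, with 18.2 to 50.0 FPKM in nanocluster and 45.2 to 56.8 FPKM in the other libraries, and did not pass (nanocluster minus Control, log2 -0.65, adjusted p = 0.132). Decoy receptors, which take up chemokines without signalling, gave no call: 0 of the 2 tested (Ackr3 and Ackr1) passed in any comparison in limma. Ackr3 lay between 0.811 and 3.26 FPKM over all libraries. Ackr1 was higher at an unadjusted p under 0.05 in limma for nanocluster against Control. It stood at 1.64, 0.185 and 0.695 FPKM in the nanocluster libraries, with a mean of 0.082 in Control. Because Ackr1 passed the filter on low values only through the treated libraries, this p gives no support for a rise.

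Il1b, Tnf and Il18, cytokines of the inflammatory response, rose in both treated groups against Control. Of 10 neutrophil growth and recruitment cytokines found, 4 passed the filter on low values, and all 4 (Il1a, Il1b, Tnf and Il18) rose in the nanocluster tumours against Control, with 3 rising in the lenvatinib tumours (Il1a did not pass there, log2 0.27, adjusted p = 0.592). Among all tested genes, 20.9% rose in the nanocluster and 13.8% in the lenvatinib tumours against Control. Il1b, a strong inducer of Cxcl1 and Cxcl2, stood at 9.47, 12.3 and 11.5 FPKM in the nanocluster libraries, 5.59, 5.55 and 5.42 in the lenvatinib libraries and 1.63, 3.21 and 3.08 in Control. The 3 groups did not overlap, and Il1b rose by 1.92 in nanocluster (adjusted p = 0.000589) and 0.98 in lenvatinib tumours (adjusted p = 0.0117) on the log2 scale against Control, and by 0.94 between the treated groups (adjusted p = 0.0121). Tnf rose by 1.34 and 1.16 against Control. Csf3, which encodes the ligand of Csf3r, and Il17a were not tested, at no more than 0.381 and 0.106 FPKM in any library.

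Of the NF-kB genes and the upstream receptors, 9 of 14 and 2 of 8 rose in nanocluster against Control with all 9 libraries. The difference between these lists was not tested. Of all tested genes, 20.9% rose and 12.7% fell in nanocluster against Control, and 13.8% rose and 9.87% fell in lenvatinib against Control. For nanocluster against lenvatinib, 17.3% rose and 12.0% fell. Without Control replicate 1, 6610 of all genes were called in that comparison, in place of 4507. Most receptor counts with all 9 libraries lay near these shares. Of 8 receptors and adaptors upstream of Cxcl1 and Cxcl2, 2 rose and 1 fell in nanocluster against Control, 1 rose and 2 fell in lenvatinib against Control, and 2 rose in nanocluster against lenvatinib tumours (6 rose and 1 fell without Control replicate 1). Tlr2, a sensor of bacterial lipoproteins, rose by 1.62 against Control and 1.41 against lenvatinib tumours, and Cd14, a co-receptor for endotoxin, rose by 0.67 in nanocluster tumours and fell by 0.89 in lenvatinib tumours. Of 14 NF-kB subunits, feedback inhibitors and early targets, 9 rose and 1 fell in nanocluster against Control, 4 rose and 2 fell in lenvatinib against Control, and 7 rose and 0 fell in nanocluster against lenvatinib (11 rose without Control replicate 1). Relb, a subunit of the noncanonical arm, rose by 0.74 and 0.64 in the treated groups against Control and differed by 0.10 between them (adjusted p = 0.328). Nfkbia, the inhibitor that NF-kB induces, and Ptgs2, the inducible cyclooxygenase, were higher in nanocluster than in lenvatinib tumours by 0.82 and 1.34 (adjusted p = 0.00153 and 0.00435). Ier3 fell by 1.18 in nanocluster and 0.88 in lenvatinib tumours against Control (adjusted p = 0.00455 and 0.0186). Zc3h12a fell by 0.61 in lenvatinib against Control (adjusted p = 0.00962) and rose by 0.81 in nanocluster against lenvatinib tumours (adjusted p = 0.00218).

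**Figure D3:**
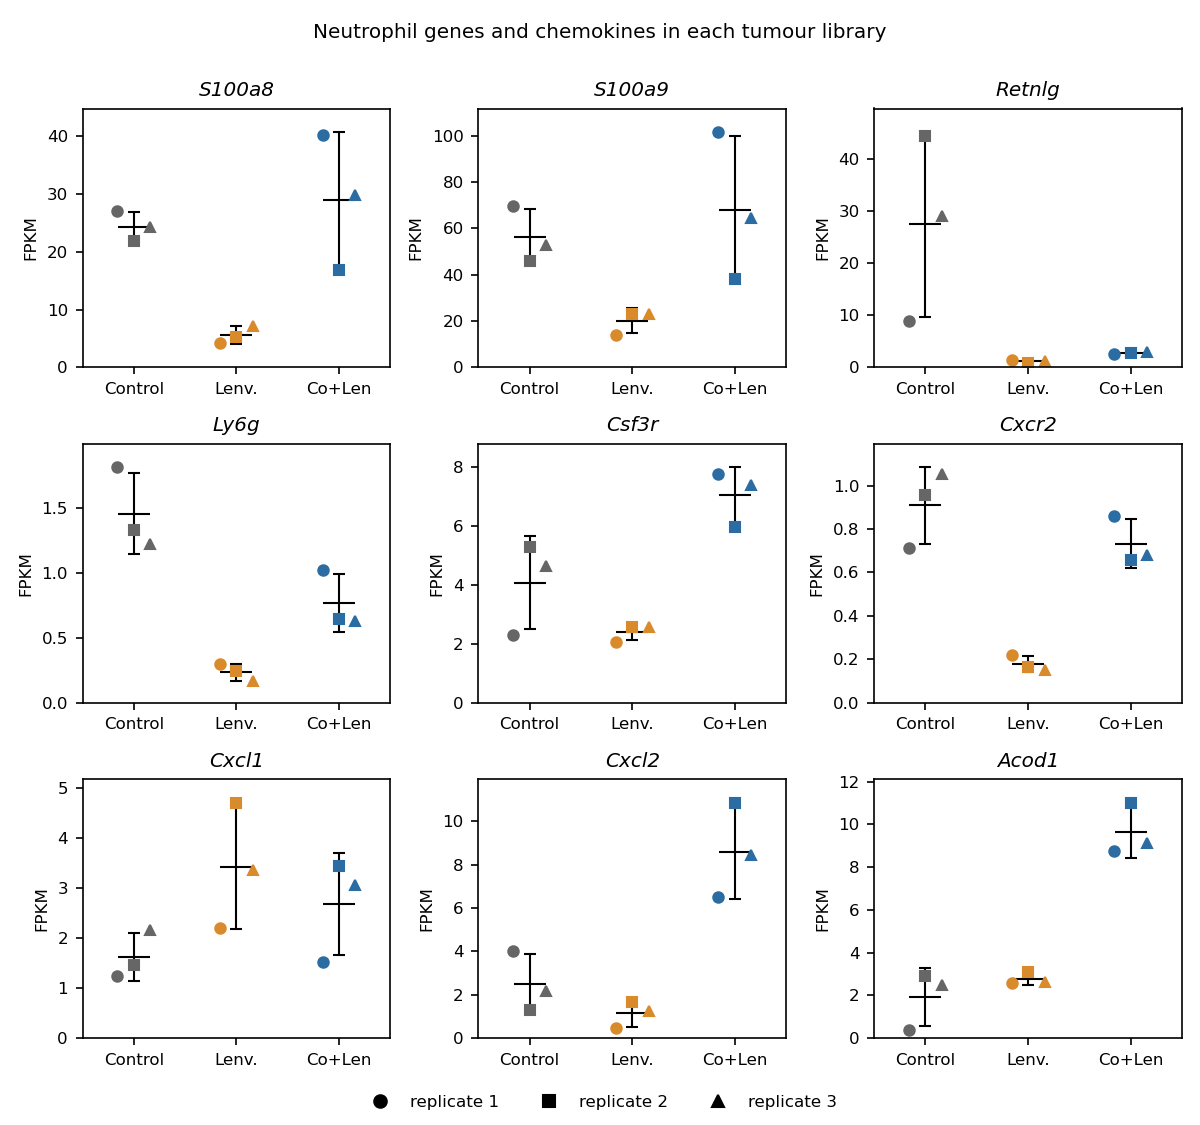
FPKM of the 9 genes in each of the 9 libraries (y axis, linear and starting at 0, with a separate scale per gene), by group, where Lenv. stands for Lenvatinib+anti-PD1 and Co+Len for Co+Len@OVA+anti-PD1. Symbols are replicates, horizontal lines means and bars SD. The lenvatinib libraries are lowest for S100a8, S100a9, Ly6g, Cxcr2 and Retnlg, and the nanocluster libraries are highest for Csf3r, Cxcl2 and Acod1.

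The receptors Cxcr2 and Csf3r were both higher in nanocluster than in lenvatinib tumours, and stood differently to Control. Cxcr2 was at 0.861, 0.658 and 0.679 FPKM in the nanocluster libraries, 0.219, 0.165 and 0.152 in the lenvatinib libraries and 0.714, 0.957 and 1.05 in Control. The lenvatinib libraries lay apart below both other groups, which overlapped. Cxcr2 was 2.07-fold lower in lenvatinib than in Control tumours (log2 -1.05, SE 0.15, adjusted p = 0.00285) and 1.81-fold higher in nanocluster than in lenvatinib tumours (log2 0.86, SE 0.15, adjusted p = 0.00531). Nanocluster and Control, with means of 0.733 ± 0.112 and 0.908 ± 0.175 FPKM (SD, n = 3), did not differ past the threshold (log2 -0.19, SE 0.15, adjusted p = 0.364). These levels are at or under about 1 FPKM, and the number of fragments behind them is not known.

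Csf3r stood at 7.77, 5.96 and 7.40 FPKM in the nanocluster libraries, 2.08, 2.56 and 2.59 in the lenvatinib libraries and 2.29, 5.29 and 4.64 in Control. The nanocluster libraries were above all others, while Control replicate 1 fell among the lenvatinib libraries. Csf3r rose 2.59-fold in nanocluster against lenvatinib tumours (log2 1.37, SE 0.26, adjusted p = 0.00629). Against Control it rose 1.72-fold (log2 0.78, SE 0.26), with an adjusted p of 0.0478 close to the threshold. That call was lost in 15 of 19 alternative fits. Of the fits that left out 1 library, only those without Control replicate 1 or 2 kept it, and the adjusted p lay between 0.0597 and 0.128 without any other library. Lenvatinib and Control, with means of 2.41 ± 0.289 and 4.08 ± 1.58 FPKM (SD, n = 3), differed by -0.59 (SE 0.26, adjusted p = 0.130), and by -0.91 (adjusted p = 0.00265) without Control replicate 1. The leukocyte sum moved with Csf3r, at 211 to 252 FPKM in nanocluster, 87.2 to 91.6 in lenvatinib and 53.9, 204 and 156 in Control libraries, and its part was not tested.

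The ratio of Csf3r to Cxcr2 was 9.02, 9.06 and 10.9 in the nanocluster libraries, 9.48, 15.5 and 17.0 in the lenvatinib libraries and 3.21, 5.53 and 4.40 in Control, with Control below both treated groups. The genes most like Csf3r over the 9 libraries were Abca7 (r = 0.997), Gnai2 (0.995), Xdh (0.994) and Pitpna (0.994).

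Most other surface and signalling genes of neutrophils were higher in nanocluster than in lenvatinib tumours. Of 19 found, 17 were tested: 6 rose and 2 fell in nanocluster against Control, 0 rose and 6 fell in lenvatinib against Control (10 fell without Control replicate 1), and 13 rose and 0 fell in nanocluster against lenvatinib. Their median log2 fold changes were 0.89, -0.61 and 1.36. Beside these counts, 20.9% of all tested genes rose and 12.7% fell in nanocluster against Control. In lenvatinib against Control 13.8% rose and 9.87% fell, and in nanocluster against lenvatinib 17.3% rose and 12.0% fell. Without Control replicate 1, 5055 of all genes were called for lenvatinib against Control, in place of 3636. Clec4d, a C-type lectin receptor of neutrophils and monocytes, stood at 19.3, 13.4 and 16.8 FPKM in the nanocluster libraries against 1.11 to 2.35 in all others, and rose by 2.75 against Control (adjusted p = 0.000151). Clec4e, its partner receptor, rose by 1.38. Il1r2, the decoy receptor for interleukin-1, went the other way against Control. It stood at 5.06, 3.52 and 3.97 FPKM in the nanocluster, 1.20, 1.65 and 1.52 in the lenvatinib and 7.37, 12.1 and 11 in the Control libraries, and fell by 1.17 in nanocluster and 2.42 in lenvatinib tumours on the log2 scale (adjusted p = 0.0039 and 0.000238). Several of these genes, Clec4d, Clec4e, Fpr1, Itgam and Cd33 among them, are also known from monocytes and macrophages. Markers of other blood cells were higher in the nanocluster tumours as well. All 4 erythroid markers rose there, with sums of 1688 to 2464 FPKM against 148 to 359 in lenvatinib and 243 to 502 in Control libraries, and a median log2 fold change of 3.02 against lenvatinib and 2.36 against Control. Of 5 T cell markers, 4 rose against Control and 3 against lenvatinib, with sums of 93.1 to 130 FPKM in nanocluster, 38.5 to 39.6 in lenvatinib and 11.2 to 49.9 in Control libraries. The part of these cells in the result was not tested.

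The calprotectin pair fell in the lenvatinib tumours and did not pass against Control in the nanocluster tumours. S100a8 was at 40.3, 16.9 and 29.8 FPKM in the nanocluster libraries, 4.25, 5.33 and 7.20 in the lenvatinib libraries and 27.0, 21.9 and 24.2 in Control. The lenvatinib libraries lay apart below all others, and the nanocluster libraries spread to both sides of Control. S100a8 was 4.15-fold lower in lenvatinib than in Control tumours (log2 -2.05, SE 0.30, adjusted p = 0.00285) and 4.65-fold higher in nanocluster than in lenvatinib tumours (log2 2.22, SE 0.30, adjusted p = 0.00142). Nanocluster minus Control was 0.17 (SE 0.30, adjusted p = 0.695), and -0.11 without nanocluster replicate 1, so this difference has no settled direction. The means were 29.0 ± 11.7, 5.59 ± 1.49 and 24.4 ± 2.55 FPKM (SD, n = 3 each).

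S100a9 was the most abundant of the 9 genes in FPKM in all groups. Its values were 102, 38.1 and 64.5 in the nanocluster libraries, 13.9, 23.1 and 23.2 in the lenvatinib libraries and 69.6, 46.0 and 52.7 in Control. It repeated the order of S100a8, with the lenvatinib libraries apart at the bottom. S100a9 was 2.78-fold lower in lenvatinib than in Control tumours (log2 -1.48, SE 0.36, adjusted p = 0.0207), a call that was lost without lenvatinib replicate 1 (adjusted p = 0.0638) or Control replicate 3 (adjusted p = 0.0589). It was 3.17-fold higher in nanocluster than in lenvatinib tumours (log2 1.66, SE 0.36, adjusted p = 0.0113). Nanocluster minus Control was 0.19 (SE 0.36, adjusted p = 0.707), and -0.15 without nanocluster replicate 1. The means were 68.1 ± 31.9, 20.1 ± 5.35 and 56.1 ± 12.2 FPKM (SD, n = 3 each).

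The ratio of S100a9 to S100a8 was 2.52, 2.26 and 2.16 in the nanocluster, 2.58, 2.10 and 2.18 in the Control and 3.27, 4.34 and 3.22 in the lenvatinib libraries, where S100a8 was thus the more reduced of the pair. Over the 9 libraries S100a8 and S100a9 had a Pearson r of 0.975 in log2 level. S100a8 also ran with Cxcr2 (0.903) and hardly with Acod1 (0.206). The genes most like S100a8 were Ccn2 (0.988), a matricellular protein, Kdm6a (0.987), Ngp (0.985), a secondary granule protein of neutrophil precursors, and Tmem131l (0.977). In bulk tumour RNA, fewer cells of a type and less RNA per cell cannot be told apart, for these genes and for the whole set.

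**Figure D4:**
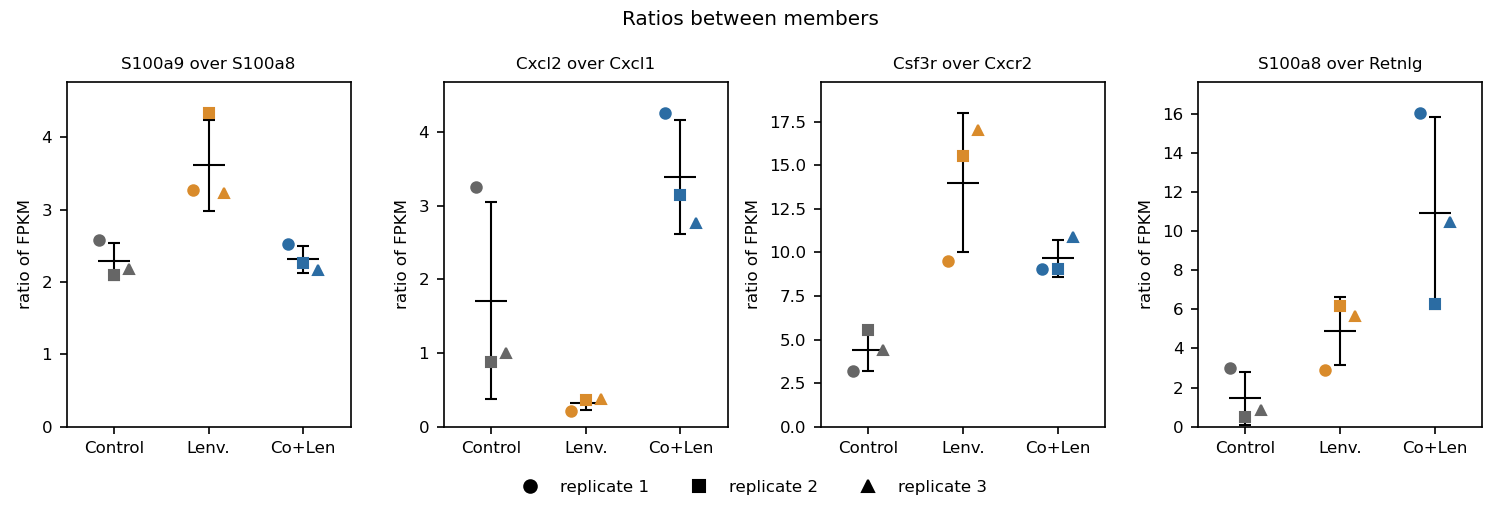
Ratios of FPKM between pairs of the genes (y axis, linear from 0) in each library by group, with the mean (line) and SD (bars), and replicates as symbols. The ratio of Cxcl2 to Cxcl1 is 0.21 to 0.38 in the lenvatinib libraries and 2.76 to 4.26 in the nanocluster libraries.

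Nearly as many granule and oxidase genes fell in the lenvatinib tumours as did not. Of 21 tested, 10 fell and 1 rose in lenvatinib against Control (16 fell without Control replicate 1), 3 rose and 3 fell in nanocluster against Control, and 14 rose and 4 fell in nanocluster against lenvatinib tumours. Their median log2 fold changes were -1.10, 0.31 and 1.55. Of all tested genes, 9.87% fell and 13.8% rose in lenvatinib against Control. For nanocluster against Control 20.9% rose and 12.7% fell, so the granule counts there lay near these shares. For nanocluster against lenvatinib 17.3% rose and 12.0% fell. Without Control replicate 1, 5055 of all genes were called for lenvatinib against Control, in place of 3636. Elane, the neutrophil elastase of primary granules, stood at 3.82, 2.09 and 2.81 FPKM in the nanocluster libraries, 0.437, 0.825 and 0.691 in the lenvatinib libraries and 4.45, 3.47 and 3.33 in Control, and fell by 1.89 in lenvatinib tumours (adjusted p = 0.000911). Ngp stood at 36.2, 10.6 and 24.3 FPKM in the nanocluster, 2.81, 3.44 and 3.04 in the lenvatinib and 21.0, 20.4 and 19.7 in the Control libraries. Chil3, a chitinase-like protein of neutrophil precursors and macrophages, fell by 3.31 in lenvatinib against Control and rose by 2.80 in nanocluster against lenvatinib tumours (adjusted p = 0.000268 and 0.000291). The lenvatinib libraries lay below both other groups for each of these 3 genes.

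A few granule genes took another course. Padi4 was the 1 that rose in lenvatinib against Control (log2 0.59, adjusted p = 0.0019), and lay between 10.9 and 18.7 FPKM over the libraries. Wfdc21 and Padi4 fell by 3.01 and 0.48 in nanocluster against lenvatinib tumours (adjusted p = 0.00566 and 0.00341). Lcn2, the siderophore-binding lipocalin that liver and epithelium also secrete, stood at 7.97, 5.13 and 6.41 FPKM in the nanocluster, 13.7, 12.5 and 13.5 in the lenvatinib and 43.2, 32.7 and 35.4 in the Control libraries. It fell by 2.44 in nanocluster and 1.44 in lenvatinib tumours against Control (adjusted p = 6.52e-05 and 0.000725). Pglyrp1, a peptidoglycan recognition protein, fell by 0.74 in nanocluster tumours and was level between lenvatinib and Control (log2 0.03, adjusted p = 0.755). Slpi, an inhibitor of neutrophil elastase, rose by 1.63 in nanocluster tumours (adjusted p = 0.00263). Among 6 granulocyte transcription factors, Gfi1 rose by 1.39 in nanocluster against Control, Cebpb fell by 0.60 in lenvatinib against Control, and Cebpd, Gfi1 and Spi1 rose in nanocluster against lenvatinib tumours. In these comparisons 20.9% of all tested genes rose, 9.87% fell and 17.3% rose, respectively. Monocyte and macrophage markers moved with these lists. Their summed level was 4237 to 4502 FPKM in nanocluster, 2874 to 3028 in lenvatinib and 3478 to 3679 in Control libraries over 11 of 11 markers found, none at 0 in all libraries. Without Apoe, which made up most of each sum, it was 1030 to 1233, 337 to 367, and 305, 1129 and 843 FPKM, so that Control replicate 1 stood below the lenvatinib libraries. Of the 11 markers, 6 rose and 0 fell in nanocluster against lenvatinib tumours, with a median log2 fold change of 1.56. Of all tested genes, 17.3% rose and 12.0% fell there. Against Control, 1 rose and 1 fell in nanocluster tumours, and 0 rose and 1 fell in lenvatinib tumours. Cd68 rose by 1.94 in nanocluster against lenvatinib tumours (adjusted p = 0.0133). The part of these markers in the result was not tested.

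**Figure D5:**
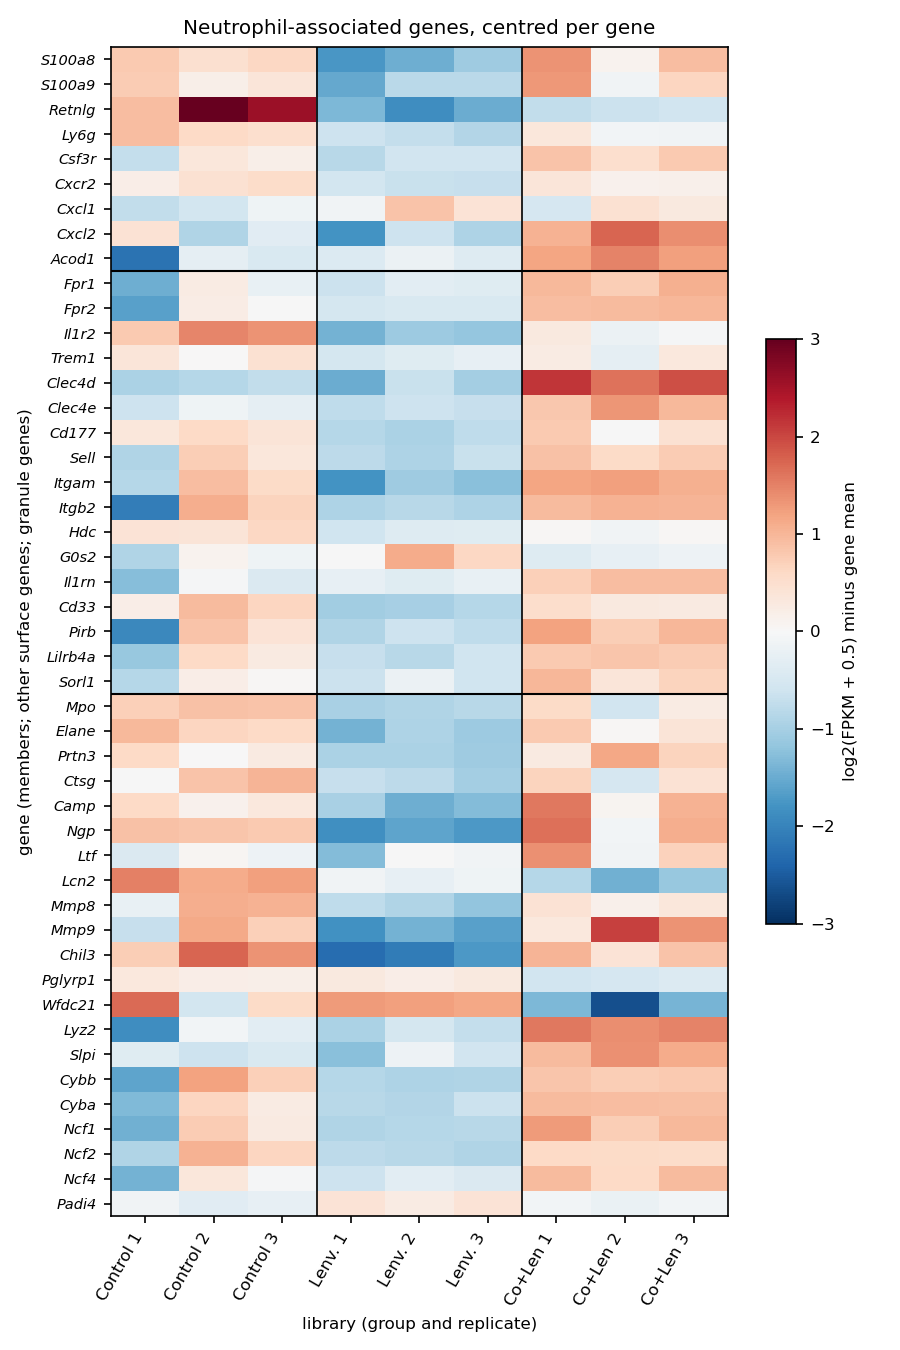
Log2(FPKM + 0.5) minus the gene's mean over the 9 libraries (colour, red above and blue below, clipped at 3) for the 9 genes, the other surface and signalling genes and the granule genes (rows, in that order), by library (columns). Most rows are blue in the 3 lenvatinib libraries. Lcn2, Pglyrp1 and Wfdc21 are blue in the nanocluster libraries, and Control replicate 1 is blue for Itgb2, Pirb, Cybb and Lyz2.

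Ly6g and Retnlg, the members most restricted to neutrophils by their known expression, were highest in Control. Ly6g stood at 1.03, 0.646 and 0.631 FPKM in the nanocluster libraries, 0.295, 0.242 and 0.165 in the lenvatinib libraries and 1.82, 1.34 and 1.23 in Control. The 3 groups did not overlap. Ly6g was 2.65-fold lower in lenvatinib than in Control tumours (log2 -1.41, SE 0.18, adjusted p = 0.00166). It fell 1.55-fold in nanocluster against Control (log2 -0.63, SE 0.18, adjusted p = 0.0311), and this call was lost without nanocluster replicate 2 or 3 (adjusted p = 0.0735 and 0.109) or Control replicate 1 or 3 (0.0781 and 0.0509). It was 1.72-fold higher in nanocluster than in lenvatinib tumours (log2 0.78, SE 0.18, adjusted p = 0.0156, and 0.0603 without lenvatinib replicate 3). The means were 0.768 ± 0.225, 0.234 ± 0.0653 and 1.46 ± 0.314 FPKM (SD, n = 3 each). As a percentage of Ptprc, a leukocyte marker, Ly6g was 10.1, 8.66 and 7.25 in the nanocluster and 9.36, 7.80 and 4.83 in the lenvatinib libraries. On that scale the treated groups overlapped for Ly6g, S100a9, Csf3r, Acod1 and Retnlg, and not for S100a8, Cxcr2, Cxcl1 and Cxcl2. The part of leukocyte content was not tested. Ly6 genes resemble each other in sequence, and how fragments that match several of them were assigned is not given in the sources used here.

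Retnlg showed the widest difference of the set. It stood at 2.51, 2.69 and 2.85 FPKM in the nanocluster libraries, 1.47, 0.867 and 1.28 in the lenvatinib libraries and 8.93, 44.3 and 29.0 in Control. No groups overlapped, and Control replicate 1 was far below the other Control libraries. Retnlg was 13.8-fold lower in lenvatinib (log2 -3.78, SE 0.49, adjusted p = 0.00177) and 7.29-fold lower in nanocluster than in Control tumours (log2 -2.87, SE 0.49, adjusted p = 0.00419). Without Control replicate 1 these became -4.43 and -3.51. Nanocluster minus lenvatinib was 0.92 (SE 0.49, adjusted p = 0.183) and passed without Control replicate 1 (adjusted p = 0.00663), since the spread is estimated over all groups. The means were 2.68 ± 0.166, 1.20 ± 0.308 and 27.4 ± 17.7 FPKM (SD, n = 3 each).

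S100a8 and Retnlg, both abundant in mature neutrophils, did not keep one ratio. S100a8 over Retnlg was 16, 6.27 and 10.5 in the nanocluster, 2.89, 6.15 and 5.64 in the lenvatinib and 3.02, 0.49 and 0.84 in the Control libraries. The nanocluster libraries were highest and 2 of the 3 Control libraries lowest. Markers of eosinophils, basophils and mast cells, other granulocytes of the blood, summed to 2.38 to 5.49 FPKM in nanocluster, 0.828 to 1.73 in lenvatinib and 0.496, 10.9 and 7.04 in Control libraries over 8 of 8 found, none at 0 in all libraries. Like Retnlg, this sum was lowest within Control in replicate 1, and its part was not tested. Prg2, the major basic protein of eosinophil granules, was at 5.15 and 3.03 FPKM in Control replicates 2 and 3 and at or under 0.484 in all other libraries. Of the resistin family, Retn and Retnla were tested, with 0 to 8.43 and 0 to 10.6 FPKM over the libraries. In limma 0 of 2 passed in any comparison. Of all tested genes, 33.6%, 23.7% and 29.4% were called for nanocluster against Control, lenvatinib against Control and nanocluster against lenvatinib. Retn was higher at an unadjusted p under 0.05 in limma for lenvatinib against Control. It stood at 0.0756, 8.43 and 3.52 FPKM in the lenvatinib libraries. With a mean of 0.055 in Control, it passed the filter on low values through the treated libraries.

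Acod1 rose in the nanocluster tumours. It stood at 8.75, 11 and 9.12 FPKM in the nanocluster libraries, 2.60, 3.10 and 2.62 in the lenvatinib libraries and 0.386, 2.89 and 2.47 in Control. The nanocluster libraries were above all 6 others, and lenvatinib and Control overlapped. Acod1 was 4.86-fold higher in nanocluster than in Control tumours (log2 2.28, SE 0.45, adjusted p = 0.00729), and the log2 difference was 1.67 without Control replicate 1. It was 3.09-fold higher than in lenvatinib tumours (log2 1.63, SE 0.45, adjusted p = 0.0292). This second call was lost without any one of the nanocluster or lenvatinib libraries (adjusted p from 0.0618 to 0.0861). Lenvatinib minus Control was 0.65 (SE 0.45, adjusted p = 0.322). The means were 9.63 ± 1.21, 2.77 ± 0.283 and 1.92 ± 1.34 FPKM (SD, n = 3 each).

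Over the 9 libraries Acod1 ran with Csf3r (r = 0.774), and the genes most like it were Pygo2 (0.998), Pclaf (0.996), Parp9 (0.992) and Ylpm1 (0.992). Of 9 genes that accompany Acod1 in the inflammatory macrophage response, 4 rose and 2 fell in nanocluster against Control, 1 rose and 3 fell in lenvatinib against Control, and 3 rose and 2 fell in nanocluster against lenvatinib tumours. The shares of all tested genes that rose and fell were 20.9% and 12.7%, 13.8% and 9.87%, and 17.3% and 12.0%. Irf1, an interferon-induced transcription factor, rose by 1.34 in nanocluster and 1.07 in lenvatinib tumours against Control. Saa3, an acute-phase protein made by macrophages, stood at 16.2, 24.0 and 20.2 FPKM in the nanocluster libraries against 2.22 to 7.12 in all others, and rose by 2.15 against Control and 2.69 against lenvatinib tumours. Ass1, an arginine-synthesis enzyme that hepatocytes also make, fell by 1.81 and 1.19 against Control. Hepatocyte markers fell with it in the nanocluster group, with sums of 745 to 1048 FPKM there, 3320 to 3536 in lenvatinib and 2270 to 5127 in Control libraries over 6 of 6 found, and their part was not tested.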

How the data were processed

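Poly(A) RNA of 9 mouse tumours (3 groups of 3) was sequenced as paired reads of 150 bases. The deposited table names its values FPKM in the file header, and they were used as such; the authors' processing used fastp, StringTie and edgeR, per the submitters' processing notes, without versions. The sources used here name no aligner, genome build or annotation. In a search over 16855 genes with 1 transcript, at most 21.3% of low values came within 0.05 of whole fragments, so counts were not recovered and depth is not known, and no interval for counting error is given.

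The 15353 of 32761 genes whose mean over all libraries reached 0.5 FPKM were tested with limma 3.58.1 in R 4.3.3 on log2(FPKM + 0.5), with 1 fit of the 3 groups (6 residual degrees of freedom), trended robust empirical Bayes variances, two-sided tests and Benjamini-Hochberg adjustment over all tested genes at 0.05. The fit was tested on simulated data. The 9 genes and all lists were chosen with earlier results of these data known. Up to 3 genes per list and comparison were named, mostly those with the smallest adjusted p among calls, or the most abundant where none passed. This choice was not complete: Slc7a2 and Bcl3 had adjusted p values among the smallest of their lists and were left out. Ier3, Zc3h12a, Ngp, Pf4, Fpr1, Itgam, Wfdc21, Padi4, Itgb2, Pirb, Cybb and Lyz2 and genes given by list membership were named after their values were seen. Of 198 listed symbols, 194 were found. Genes of like pattern were the 4 with the highest Pearson r of log2 values. Promoters came from the RefSeq table. Alternatives were the pseudocount, the filter, scaling by median of ratios or upper quartile, a fit of the 2 groups alone, plain variances, a replicate block, libraries 1 and 2 only, and each library left out in turn. Counts for the lists with libraries 1 and 2 only and without Control replicate 1 were added after seeing the data.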

Additional observations from a re-analysis of the deposited data

How the results depend on the processing

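The count of genes called for nanocluster against Control was 5155, and 3215 with only those 2 groups in the fit, 80 with libraries 1 and 2 only and 2866 to 5771 with 1 library left out. For lenvatinib against Control it was 3636, and 53 with libraries 1 and 2 only and 1947 to 5055 with 1 left out. For nanocluster against lenvatinib it was 4507, and 369 and 2383 to 6610 likewise. Of the 9 genes, 5, 5 and 7 were called. For nanocluster against Control this became 3 with no filter, 3 with only those 2 groups and 2 to 5 with 1 library left out. For lenvatinib against Control it became 3 with a minimum mean of 1 FPKM, which leaves Ly6g and Cxcr2 untested, and 4 to 6 with 1 left out, and for nanocluster against lenvatinib 5 to 8. With libraries 1 and 2 only (3 residual degrees of freedom) it was 0 in each comparison. The 3 fits with libraries 1 and 2 only have fewer samples. S100a8 and S100a9 turned to -0.11 and -0.15 for nanocluster against Control without nanocluster replicate 1, and reached 0.51 and 0.55 without nanocluster replicate 2. Upper quartile scaling gave 2493 higher and 2438 lower calls for nanocluster against Control, and median of ratios 1982 higher and 2320 lower for nanocluster against lenvatinib and 1825 and 1838 for lenvatinib against Control. The labels do not say whether the replicate numbers pair the libraries. Same-numbered libraries of different groups deviated from their group means with correlations of -0.248 to 0.0785, and differently numbered ones with -0.187 to 0.244. Deviations within a group are tied to each other, so these values cannot settle whether libraries are paired. With the replicate number as a block, 4025, 2753 and 3307 genes and 4, 6 and 7 of the 9 were called. Csf3r did not pass for nanocluster against Control (adjusted p = 0.0658) and Cxcl1 passed for lenvatinib against Control (adjusted p = 0.0328). The cause of these shifts was not tested. Depth is unknown, so the counting error of low values, such as those of Cxcr2, Ly6g, Cxcl2 and Retnlg in the lenvatinib libraries, cannot be given.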

Other observations

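Some further S100 genes rose in the nanocluster tumours. Of 12 further S100-named genes found, 10 were tested: 4 of them (S100a4, S100a10, S100a11 and S100a13) rose against Control and against lenvatinib tumours, where 20.9% and 17.3% of all tested genes rose, and 6 did not pass, while 0 passed for lenvatinib against Control in limma (0 at an unadjusted p under 0.05). S100a4, a calcium-binding protein of motile and myeloid cells, stood at 54.6, 49.6 and 51.6 FPKM in the nanocluster, 20.9, 26.5 and 25.4 in the lenvatinib and 7.65, 22.6 and 19.2 in the Control libraries (nanocluster minus Control, log2 1.76, adjusted p = 0.00707). S100a11 rose by 0.68 against Control (adjusted p = 0.000915), from 222 to 268 FPKM in Control to 373 to 420 in the nanocluster libraries. This differs from S100a8 and S100a9, which did not pass against Control, and the difference between the genes was not tested. Of 6 receptors of calprotectin, Bsg fell by 0.18 in nanocluster against Control (adjusted p = 0.0474) and Cd68 was the 1 that rose in nanocluster against lenvatinib tumours. In these comparisons 12.7% of all tested genes fell and 17.3% rose, respectively.

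Ly6g fell in both treated groups, and some other genes of the Ly6 family rose. Of 7 tested, 4 rose in nanocluster against Control (Ly6a, Ly6c1, Ly6c2 and Ly6i), 2 in lenvatinib against Control (Ly6a and Ly6i) and 6 in nanocluster against lenvatinib tumours, and 0 fell. Among all tested genes, 20.9%, 13.8% and 17.3% rose in these comparisons. For lenvatinib against Control, 2 were lower at an unadjusted p under 0.05 (Ly6f and Ly6c2, log2 -0.75 and -0.42). Ly6c2, the marker of inflammatory monocytes, stood at 8.02, 7.49 and 8.67 FPKM in the nanocluster, 3.02, 3.18 and 3.26 in the lenvatinib and 3.29, 5.18 and 4.96 in the Control libraries, and rose by 0.80 against Control (adjusted p = 0.00569). Ly6i rose by 1.67 in nanocluster and 0.83 in lenvatinib tumours against Control (adjusted p = 0.000114 and 0.0027). Ly6a, the stem cell antigen that interferon induces, stood at 498, 501 and 517 FPKM in the nanocluster, 394, 352 and 392 in the lenvatinib and 186, 262 and 250 in the Control libraries.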
